A study of Homo sapiens with 27 samples.

Results

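Gene expression in T47D cells that carry the A333fs mutant of GATA3 was compared with that in T47D cells infected with the empty vector. The libraries were taken by their titles, A333fs or Empty, and matched to the count columns through the library name in brackets. This gave 6 of the 12 RNA-seq libraries of the series, 3 A333fs and 3 control. T47D is an established line of luminal, estrogen receptor positive breast cancer that carries its own GATA3. The mutant was delivered in a pHAGE lentivirus as a protein fused to the 3xTy1 tag, and the control received the same vector without an insert. Both groups went through puromycin selection as stable pools, and there was 1 pool per line, so the mutant and anything else that set a pool apart cannot be told apart. The 6 other libraries came from the Splice del and C321fs mutant lines, made in the same way, and entered the same fit. Nothing in the labels ties the 3 libraries of a line to separate infections, and the p-values therefore measure the spread between libraries of the same pool.

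GATA3 is a zinc finger transcription factor that keeps mammary luminal cells in their differentiated state, together with FOXA1 and the estrogen receptor. It binds the short motif GATA mainly through its C-terminal zinc finger, and truncating mutations in and after that finger are common in luminal breast cancer. Epithelial to mesenchymal transition (EMT) is the programme in which epithelial cells lose junctions and take up matrix and cytoskeletal genes such as SPARC, LOX and VIM.

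The reference sequence at the mutated position is shown first, because it defines the line. In hg38 with the GENCODE annotation, the codon of alanine A333 in the 444-residue GATA3 isoform lies on chromosome 10, at chr10:8069545-8069547 of the plus strand, in exon 5, and it belongs to the C-terminal zinc finger. The stretch runs from codon 320 to codon 346 (chr10:8069506-8069586), with the codon of A333 in capitals; the bases that the mutant cDNA gained or lost are not given in the sources used here.
GATA3: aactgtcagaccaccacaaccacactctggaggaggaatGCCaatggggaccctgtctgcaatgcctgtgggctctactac

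The counted fragments on GATA3 itself gave 1247, 1340 and 1257 CPM (counts scaled to the size of each library, with TMM factors) in the control libraries and 1016, 1006 and 1028 CPM in the A333fs libraries. The A333fs libraries were all below control, by a log2 fold change of -0.33 (SE 0.05, adjusted p = 4.5e-05, quasi-likelihood test of edgeR, Benjamini-Hochberg over all genes tested), which is under the fold limit. Fragments of the mutant cDNA and of the resident gene fall on the same exons, and the counts do not separate them.

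The libraries held 30397681 to 35294988 counted fragments. A gene was called when its adjusted p was under 0.01 and it changed by more than 1.5-fold, and 14789 of 26485 genes were tested. Against control, 808 genes (5.46% of those tested) were higher and 1007 (6.81%) were lower in A333fs cells, or 12.3% in either direction. Without regard to the test, the 3 libraries of each line did not overlap for 31.2% of genes in the higher and 34.3% in the lower direction, 65.5% in all. Among the called genes, 806 of the 808 higher and all 1007 lower ones did not overlap. The split between directions depended on the scaling: 1329 genes were higher and 475 lower under upper-quartile scaling, and 1544 and 380 under library size alone. Changes over 2-fold were mostly increases: 366 genes rose and 119 fell by that much. In bulk RNA, fewer cells with a transcript and less of it in each cell cannot be told apart.

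Secreted and membrane proteins were among the largest increases. SPARC, a matricellular protein that binds collagen and is used as a mesenchymal marker, was at 0.204, 0.257 and 0.278 CPM in control and at 11.8, 11.6 and 12.4 CPM in A333fs libraries. The groups were far apart, and the log2 fold change was 5.58 (SE 0.16, adjusted p = 1.2e-12, edgeR's quasi-likelihood test). SLC6A14, an amino acid transporter of epithelial cells, rose from 3.63, 4.55 and 5.45 CPM to 84.8, 96.2 and 86.6 CPM (log2 fold change 4.29, SE 0.11). CYP4F22, a fatty acid hydroxylase of epidermal lipid synthesis, rose from 0.271, 0.192 and 0.174 CPM to 8.52, 8.14 and 9.01 CPM (5.31, SE 0.22). GALNT5, which starts mucin-type glycosylation, rose from 0.102, 0.224 and 0.104 CPM to 5.49, 5.49 and 5.90 CPM (5.24, SE 0.20). No control library reached the lowest A333fs library in any of the 4 genes, as the rule for the largest changes required. GPRC5B, an orphan receptor, GNAT3, a taste G protein subunit, and ST8SIA1, a ganglioside sialyltransferase, rose by log2 fold changes of 5.21, 5.20 and 4.02 from at most 0.208 CPM in any control library.

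For genes at no more than 3 counts in every control library, the rise is given as a bound, set against 3 counts per library (0.101 CPM). DCN, which encodes the small matrix proteoglycan decorin, was at 0.102, 0.0321 and 0.0695 CPM in control and at 12.4, 13.4 and 11.1 CPM in A333fs libraries, at least 122-fold higher. TIMP3, an inhibitor of metalloproteinases bound to the matrix, was at 0, 0 and 0.0347 CPM and at 4.42, 4.12 and 4.58 CPM, at least 43.4-fold higher. CXCL14, a chemokine made by epithelial cells, was at least 19.0-fold higher, ITGAM, an integrin subunit of myeloid cells, at least 14.2-fold, and ZMAT4, a zinc finger protein, at least 11.5-fold. In all, 38 of the 808 higher genes were at this floor in control. In the other direction 1 gene was at the floor in A333fs cells, MIR7113, at least 2.9-fold lower, and its annotated length is 59 bases.

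LUM, which encodes lumican, a proteoglycan of the same family as decorin, lies next to DCN on chromosome 12 (hg38 chr12:91103455-91111765 and chr12:91145258-91183029, both on the minus strand). LUM rose with it, from 0.237, 0.0962 and 0.139 CPM to 4.45, 5.62 and 4.05 CPM (4.87, SE 0.32). Of 8 fibroblast markers, PDGFRA, PDGFRB and FAP had 0 counts in all 6 libraries and COL1A2 had at most 1 count in each. COL6A3 had 0, 2 and 3 counts in control and 10, 4 and 13 in A333fs libraries, and was not called. THY1 had 2, 4 and 1 counts in control and 10, 4 and 6 in A333fs libraries, and was not tested. COL1A1 and COL3A1 were called lower. The summed level of these markers, mostly COL1A1, was 30.1 to 33.6 CPM in A333fs and 53.2 to 65.1 CPM in control libraries. A wider list of 16 fibroblast and stroma genes, which holds those 8 and also DCN, LUM and VIM, leaned the other way, with 5 higher and 3 lower of 10 tested (median log2 fold change 0.93, corrected 1.17). Its summed level was 103 to 118 CPM in control and 104 to 114 CPM in A333fs libraries, and the part of such cells in the rise of DCN and LUM was not tested.

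**Figure D1:**
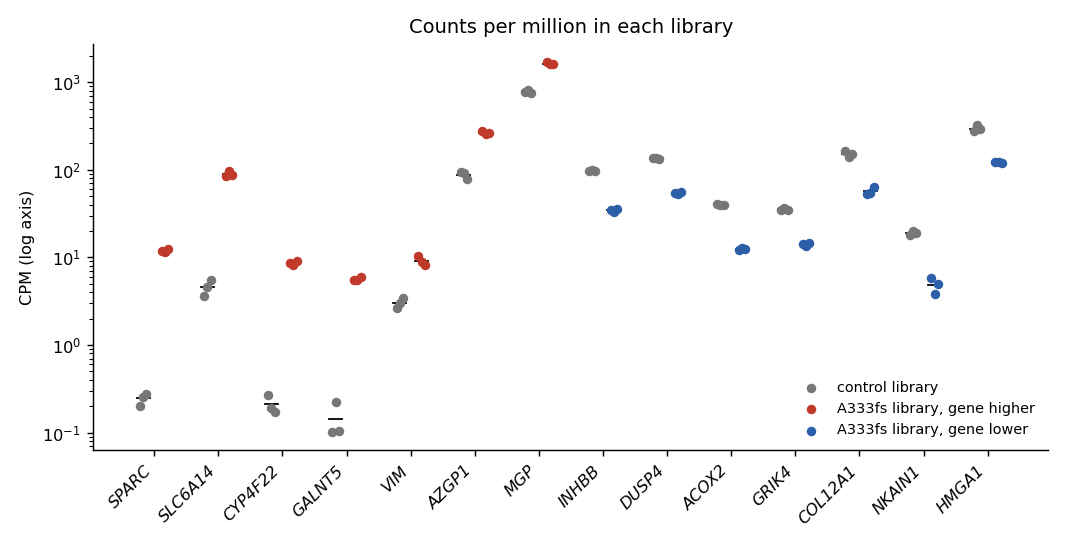
CPM on a log axis in each of the 3 control (grey) and 3 A333fs libraries (red for genes that rose, blue for genes that fell), with bars at the means. The groups do not overlap in any of the 14 genes, which were all picked from the called genes. The mean of SPARC moves from 0.246 to 11.9 CPM while the mean of INHBB falls from 98.1 to 34.7 CPM.

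The largest decreases were smaller than the largest increases. SPINK13, a protease inhibitor, fell from 2.00, 1.64 and 2.19 CPM to 0.290, 0.160 and 0.294 CPM (log2 fold change -2.94, SE 0.24, adjusted p = 1.7e-07, edgeR's quasi-likelihood test). LOC102546294 overlaps SPINK13 on the opposite strand, and the counting ignored strand. NKAIN1, a membrane protein that binds the sodium pump, fell from 17.9, 19.98 and 19.0 CPM to 5.74, 3.797 and 4.93 CPM (-1.97, SE 0.11). ACOX2, a peroxisomal oxidase of bile acid intermediates, fell from 40.8, 40.0 and 39.3 CPM to 12.2, 12.95 and 12.4 CPM (-1.68, SE 0.06). Every A333fs library was below every control library in these genes, as the rule for the largest changes required. CSMD2, BLK, SHISA9, PXDNL and ASCL2 completed the 8 largest decreases among genes whose groups did not overlap, with a mean of at least 1 CPM in control and over 3 counts in some A333fs library, with log2 fold changes between -2.30 and -1.67.

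The lower genes had a GC content far from that of the other genes. The exons of the 1007 lower genes had a median GC content of 61.7%, against 49.6% for all genes tested and 43.7% for the 808 higher genes. Of the lower genes, 878 (87.2%) were in the 3 deciles of genes with the highest GC content and 15 (1.49%) were in the 3 lowest deciles. Of the higher genes, 435 (53.8%) were in the 3 lowest deciles and 88 (10.9%) in the 3 highest. In the decile with the highest GC content, at a median of 64.7%, 441 of 1479 genes were called lower and 19 higher, and the median log2 fold change was -0.50. In the lowest decile, at 37.6%, 4 were called lower and 147 higher, and the median was 0.31.

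This followed a difference between whole libraries. The slope of log2 CPM over exon GC content, with each gene centred on its mean over the 12 libraries, was 0.170, 0.233 and 0.153 per 10 percentage points of GC in the control libraries. It was -0.0855, -0.171 and -0.118 in the A333fs libraries. All 3 A333fs libraries were below all 3 control libraries, and their means were -0.31 apart (two-sided exact permutation test, p = 0.1, which is the lowest value possible with 3 against 3 libraries). The other 6 mutant libraries lay between, at -0.0712 to 0.0590, and the A333fs libraries were below these by a mean of -0.094 (two-sided exact permutation test, p = 0.0595 over 84 arrangements). The slope over exon length did not separate the lines in the same way (two-sided exact permutation test, p = 0.2 against control and 0.798 against the other mutant libraries). The 10 most abundant genes took 4.90% ± 0.211 of the counts in control and 4.04% ± 0.105 in A333fs libraries (SD, n = 3), and the TMM factors were 0.884 to 0.943 and 1.01 to 1.02. Whether this difference arose in the cells or in the preparation of the libraries cannot be told apart. All A333fs slopes over GC content were negative and all control slopes positive. Within the other lines the sign varied. C321fs libraries were at 0.0590, -0.0689 and -0.0712, and Splice del libraries at -0.0544, -0.0670 and 0.0216.

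**Figure D2:**
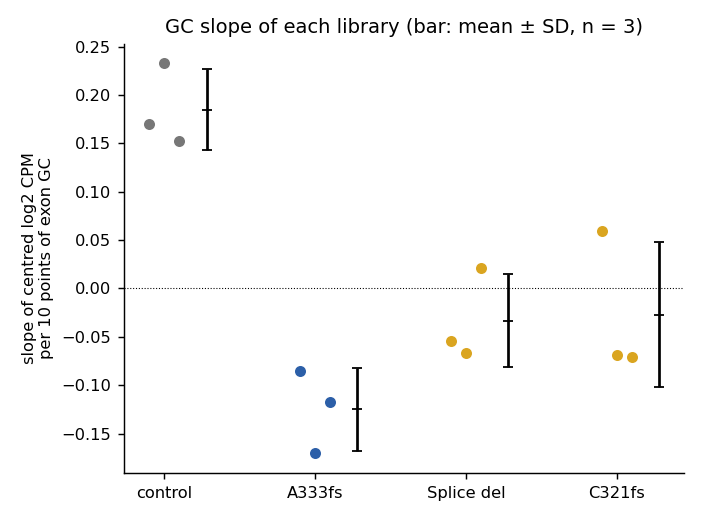
Slope of log2 CPM over exon GC content in each of the 12 libraries (points), with the mean ± SD of each line (n = 3) beside them. Control libraries sit between 0.153 and 0.233 and A333fs libraries between -0.171 and -0.0855, with the other mutant libraries in between.

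The loess trend of each library over exon GC content and exon length was then removed through offsets in the same fit, which sets the trend to about 0 by construction, whatever its cause. With the trend removed, 576 genes (3.89%) were higher and 224 (1.51%) were lower, 5.41% in either direction. Log2 fold changes from this fit are called corrected. Of the 1007 lower genes, 148 (14.7%) were still called lower, and of the 808 higher genes, 452 (55.9%) were still called higher. No gene was called in opposite directions, and all 1007 lower genes kept a negative log2 fold change. Their median moved from -0.69 to -0.34, so most of them went under the fold limit. Changes over 2-fold depended on it less: 86 of the 119 such decreases and 324 of the 366 such increases were still called. A further 124 higher and 76 lower genes were called only with the trend removed.

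**Figure D3:**
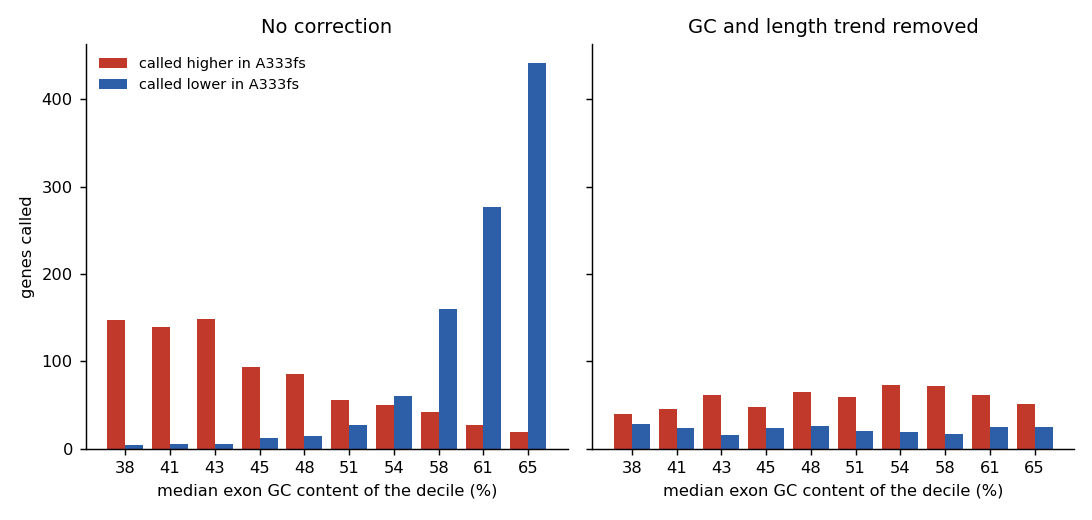
Genes called higher (red) and lower (blue) in A333fs cells by decile of exon GC content, with the median GC content of each decile on the x axis, without a correction (left) and after removal of the trend over GC content and length (right). The lower calls rise to 441 in the highest decile on the left, and they are between 16 and 28 in every decile on the right.

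**Figure D4:**
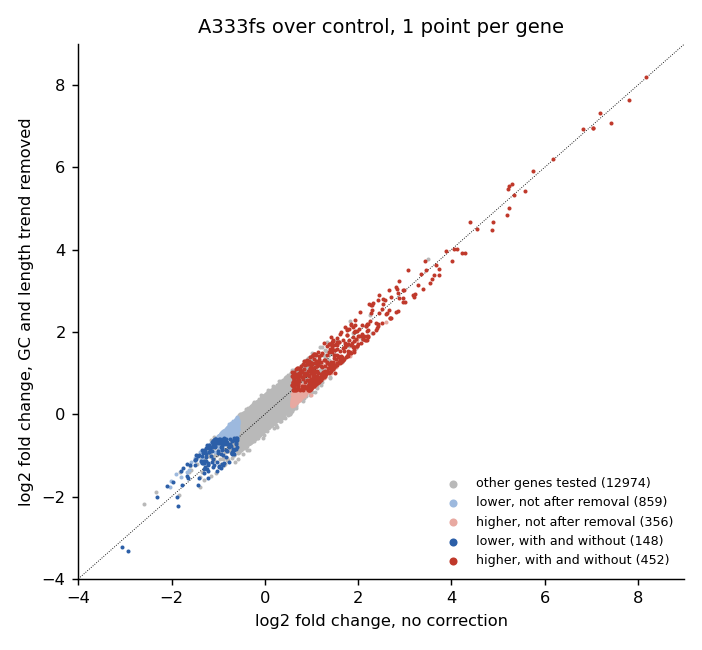
Log2 fold change of A333fs over control for each of the 14789 genes without a correction (x axis) and the corrected log2 fold change (y axis). The 452 higher and 148 lower genes called both ways are dark, and the 859 lower and 356 higher genes called only without the correction are pale.

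The same held for the most abundant genes called. RPL8, a protein of the large ribosomal subunit, ACTB, beta-actin, KRT19, a luminal keratin, and EEF2, the elongation factor of translation, were the 4 lower genes with the highest CPM, at exon GC contents of 55.2% to 62.1%. KRT19 was at 5132, 6223 and 5338 CPM in control and at 3718, 3472 and 3740.1 CPM in A333fs libraries (log2 fold change -0.61, SE 0.08). With the trend removed it was at -0.22, and none of the 4 was called. Of the 4 higher genes with the highest CPM, AGR2, a luminal disulfide isomerase, was at 952, 1080.1 and 1033 CPM and at 1869, 1946 and 1777 CPM (0.87, SE 0.06, corrected 0.56). MGP, a matrix protein that blocks calcification, rose from 780, 820 and 748 CPM to 1678, 1610 and 1607 CPM (1.06, SE 0.05) and was still called at 0.69. CXCL12 and EIF4A2 were called higher only without the correction (0.51 and 0.23 with it).

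By chromosome, the median log2 fold change followed the GC content of the genes. It was -0.35 on chromosome 19 (1102 genes, median GC 59.4%), where 209 genes were lower and 37 higher, and 0.19 on chromosome 13 (235 genes, 43.4%). With the trend removed, the medians on these 2 chromosomes were -0.08 and -0.05, against -0.04 for all genes, and chromosome 19 held 28 higher and 15 lower genes.

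Lower genes that kept their call with the smallest adjusted p with the trend removed included signalling and regulatory genes. INHBB, the beta B subunit of activin and inhibin, was at 97.1, 100.6 and 96.5 CPM in control and at 35.0, 33.2 and 35.8 CPM in A333fs libraries (log2 fold change -1.4998, SE 0.05, corrected -1.24). DUSP4, a phosphatase that turns off MAP kinases, fell from 135, 136 and 133 CPM to 54.1, 53.3 and 55.0 CPM (-1.32, SE 0.05, corrected -1.18). MSX2, a homeobox factor of epithelial development, fell from 83.8, 89.0 and 80.0 CPM to 36.9, 34.4 and 37.1 CPM (-1.22, SE 0.06, corrected -1.39). In each of the 3 genes the libraries of a line lay close together and the lines were well apart. Choice by the smallest adjusted p favours such genes. COL12A1, a collagen on the surface of fibrils, fell from 162, 141 and 153 CPM to 52.8, 54.4 and 63.3 CPM (-1.42, corrected -1.55), and HMGA1, a chromatin protein of proliferating cells, from 274, 323 and 289 CPM to 122, 121 and 120.2 CPM (-1.29, corrected -0.90).

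Gene lists are given below by their counts and their median log2 fold change, without and then with the trend removed. Of all genes tested, 5.46% were higher and 6.81% lower, and 3.89% and 1.51% with the trend removed. The median of all genes tested was 0.01 and -0.04. Medians also varied with the level of the genes. They were 0.18 and 0.17 in the decile with the lowest mean CPM and -0.23 and -0.14 in the highest. Under upper-quartile scaling and under library size alone, the median of all genes moved to 0.12 and 0.16. Such scalings shift all genes by nearly the same amount, so a list could hardly change its side of the median of all genes. Each of the 46 lists kept its side in both, which therefore tests nothing about the lists. With the trend removed, 16 of the 46 changed side, the estrogen receptor targets, the postsynaptic genes and the proteases among them.

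Fibrillar and matricellular genes were called higher more often than lower, beside 5.46% and 6.81% of all genes tested. Basement membrane and integrin genes were not, with 2 higher and 3 lower of 26 (median -0.05 and 0.07). With the trend removed 2 and 0 of these were called. In the 3 deciles of genes with the lowest mean CPM, 8.72%, 13.5% and 11.9% of genes were called higher. Of 22 fibrillar collagen and matrix genes tested, 9 were higher and 4 lower (median 0.38 and 0.72; 9 and 2 with the trend removed; median GC 52.6%). The summed level of this list was 573 to 596 CPM in control and 508 to 562 CPM in A333fs libraries. Within the list the collagens split. COL5A2 rose from 4.04, 4.17 and 3.58 CPM to 8.71, 8.93 and 7.72 CPM (log2 fold change 1.10, SE 0.12), and COL5A1, its partner in type V collagen, was higher as well (1.72, SE 0.26). COL3A1 fell from 4.95, 5.07 and 5.38 CPM to 1.36, 1.95 and 1.58 CPM (-1.65, SE 0.14, corrected -1.56). COL5A1 overlaps a gene on the other strand, as SPARC and GRIK1 do, and COL3A1 hosts a microRNA gene. COL1A1, a chain of type I collagen, was called lower only without the correction (-0.83, corrected -0.43). Of 18 matricellular proteins, which signal from the matrix rather than build it, 5 were higher and 2 lower (median 0.38 and 0.48; 6 and 1 with the trend removed). CTGF, a growth factor binding protein of this group, rose from 0.373, 0.192 and 0.278 CPM to 2.10, 2.20 and 2.38 CPM (2.98, SE 0.27). Of 37 extracellular proteases and inhibitors, 6 were higher and 7 lower, and 8 and 1 with the trend removed. PRSS23, a secreted serine protease, rose from 15.1, 15.4 and 14.2 CPM to 64.9, 64.2 and 65.6 CPM (2.12, SE 0.06); an exon of FZD4 overlaps it on the other strand.

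EMT genes moved in both directions. VIM, an intermediate filament protein, rose from 2.61, 2.98 and 3.47 CPM to 10.4, 8.87 and 8.25 CPM (log2 fold change 1.598, SE 0.12, corrected 1.74), with an antisense gene that unstranded counts do not separate. LOX, a collagen cross-linking enzyme, went from 0.441, 0.545 and 0.903 CPM to 1.52, 1.12 and 1.20 CPM and was called higher only without the correction (1.02, SE 0.26, corrected 0.69). CDH1, E-cadherin, was at 486, 508 and 475 CPM in control and at 559, 572 and 644 CPM in A333fs libraries, under the fold limit (0.27, SE 0.07). ZEB1 did not pass the filter on low counts. Of 12 EMT transcription factors tested, SOX9, SOX4 and TWIST1 were higher and MSX2, FOXC1, TBX2 and SNAI1 were lower; 3 were higher and 3 lower with the trend removed. TWIST1 went from 1.26, 1.25 and 1.28 CPM to 2.39, 1.72 and 2.20 CPM (0.73, SE 0.17, corrected 1.00).

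Beside 12.3% of all genes called in either direction, junction lists gave the following counts. Of 30 tight junction genes 2 were higher and 2 lower, and 2 and 0 with the trend removed. CGNL1, a cytoskeletal linker of tight junctions, rose from 0.984, 1.51 and 0.868 CPM to 4.13, 4.31 and 5.25 CPM (log2 fold change 2.02, SE 0.18, corrected 2.07). Of 27 adherens junction genes, 0 were higher and 3 lower, and none was called with the trend removed; the 3 were PVRL1, SCRIB and JUP, at exon GC contents of 59.0% to 66.5%. Of 16 desmosome and plakin genes, 1 was higher and 3 lower, and 2 and 0 with the trend removed. KRT14, a basal keratin, was at 0.0339, 0 and 0 CPM in control and at 0.581, 0.510 and 0.616 CPM in A333fs libraries, at least 5.65-fold higher.

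Luminal identity genes were called in equal numbers, and luminal markers stayed abundant: the summed level of 8 luminal markers was 17735 to 20936 CPM in control and 13310 to 14358 CPM in A333fs libraries, with KRT19 as the only one called. Of 30 tested, 5 were higher and 5 lower (median -0.27 and -0.14), and 2 and 1 with the trend removed. CD24, a surface glycoprotein, rose from 340, 354 and 390.2 CPM to 718, 701 and 675 CPM (log2 fold change 0.95, SE 0.06, corrected 0.93). STARD10, a lipid transfer protein, fell from 722, 843 and 794 CPM to 368, 346 and 359 CPM (-1.14, SE 0.09, corrected -0.89). FOXA1 was at 466, 493 and 474 CPM and at 360.3, 367 and 374 CPM, apart but under the fold limit (-0.38, SE 0.05, corrected -0.44). ESR1, the estrogen receptor, was at 219, 209 and 234 CPM and at 228, 244 and 244 CPM (0.11, SE 0.06, adjusted p = 0.12 by edgeR's quasi-likelihood test), and PGR, the progesterone receptor, was not called (-0.07, SE 0.08).

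Of 30 estrogen receptor targets, 7 were higher and 6 lower, beside 5.46% and 6.81% of all genes. With the trend removed 5 and 2 were called, beside 3.89% and 1.51%. BCL2, which blocks apoptosis, rose from 2.21, 1.73 and 2.40 CPM to 7.20, 8.17 and 6.28 CPM (1.77, SE 0.15), and FKBP4, a co-chaperone of steroid receptors, fell from 1844, 2029 and 1761 CPM to 1195, 1147 and 1233 CPM (-0.66, SE 0.06, corrected -0.62). Of 15 mammary secretory and apocrine genes, 3 were higher and 1 lower (4 and 0). AZGP1, a secreted lipid-mobilizing glycoprotein, rose from 94.4, 91.1 and 79.4 CPM to 275, 256 and 266 CPM (1.59, SE 0.06, corrected 1.75), and PIP, prolactin-induced protein, rose by 1.03 (SE 0.06, corrected 0.76).

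Interferon-stimulated genes were called in the higher direction alone. Of 52 tested, 17 were higher and 0 lower, beside 5.46% and 6.81% of all genes, and 15 and 0 with the trend removed (median 0.54 and 0.41; median GC 46.0%); 10 of the 52 had a negative log2 fold change. IFIT2, which blocks translation of viral RNA, rose from 0.950, 1.12 and 1.597 CPM to 3.81, 3.51 and 3.05 CPM (log2 fold change 1.497, SE 0.21). PARP14, an ADP-ribosyltransferase, rose from 21.3, 19.6 and 22.3 CPM to 36.2, 41.5 and 39.2 CPM (0.89, SE 0.12). GBP1, a guanylate-binding protein, rose from 0.170, 0.0962 and 0.208 CPM to 1.42, 1.95 and 1.12 CPM (3.22, SE 0.35). A333fs replicate 2 was the highest A333fs library in GBP1, PARP14, IFI6 and ISG15, and IFI6 was at 13.9, 10.4 and 12.2 CPM in control and at 20.8, 34.9 and 15.6 CPM in A333fs libraries. Of 25 NF-kB feedback and chemokine genes, 9 were higher and 0 lower, and 6 and 0 with the trend removed (median 0.15 and 0.38), while 11 had a negative log2 fold change. CXCR4, the receptor of CXCL12, rose from 0.577, 0.353 and 0.590 CPM to 4.68, 3.57 and 3.90 CPM (2.998, SE 0.20). CCL28, an epithelial chemokine, rose from 14.5, 15.1 and 14.3 CPM to 30.0, 31.0 and 26.9 CPM (1.00, SE 0.07), and CCL2, a monocyte chemokine, had 0 counts in every control library and was at 1.10, 0.861 and 0.704 CPM in A333fs libraries, at least 8.81-fold higher. PTPRC and PECAM1, defining markers of blood and endothelium, had 0 counts in all 6 libraries.

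TGF-beta family ligands changed in opposite directions. Of 46 genes of the TGF-beta, activin and BMP pathway, 7 were higher and 4 lower, beside 5.46% and 6.81% of all genes. With the trend removed 9 and 4 were called, beside 3.89% and 1.51%. The median of the list was 0.21 and 0.06. TGFB2 rose from 1.15, 1.35 and 1.42 CPM to 3.81, 3.96 and 3.73 CPM (log2 fold change 1.55, SE 0.16, corrected 1.25), with overlapping RNAs that unstranded counting does not separate. TGFB1 fell from 4.82, 5.23 and 5.38 CPM to 2.74, 2.04 and 2.38 CPM (-1.11, SE 0.12, corrected -0.67). Likewise INHBA, the beta A subunit of activin, rose from 0.407, 0.257 and 0.174 CPM to 1.26, 1.02 and 1.53 CPM (2.17, SE 0.29), while INHBB fell. BAMBI, a decoy receptor, rose from 52.6, 55.3 and 51.3 CPM to 87.9, 85.5 and 87.9 CPM (0.71, SE 0.05, corrected 0.75). Of 15 EGF family and ERBB genes, 4 were higher and 0 lower (3 and 0). EGF itself went from 4.58, 4.78 and 5.52 CPM to 9.07, 9.38 and 10.7 CPM (0.97, SE 0.10), and EREG, epiregulin, from 0.204, 0.224 and 0.104 CPM to 0.968, 1.02 and 1.53 CPM (2.69, SE 0.32).

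The FGF and MAP kinase feedback list leaned lower. Of 24 genes, 1 was higher and 9 lower (median -0.28 and -0.29; median GC 54.0%), but 1 and 2 were called with the trend removed, DUSP4 and ETV4 being the lower ones. FGFR2 rose from 65.0, 62.0 and 62.1 CPM to 93.7, 97.4 and 100.8 CPM (log2 fold change 0.63, SE 0.06, corrected 0.59), and FGFR3, with a GC content of 62.0%, was at 63.4, 63.5 and 63.3 CPM and at 35.7, 34.2 and 35.7 CPM (-0.85, SE 0.06, corrected -0.46). Of 27 AP-1 and immediate early genes, 3 were higher and 7 lower, beside 5.46% and 6.81% of all genes. With the trend removed 2 and 3 were called, beside 3.89% and 1.51%. MYC, a transcription factor of growth, fell from 122.9, 138 and 124 CPM to 67.1, 67.4 and 68.4 CPM (-0.92, SE 0.06, corrected -0.77), and IER5L fell by 1.09 on the log2 scale (log2 fold change -0.65 with the trend removed).

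Most Notch genes were not called, and most of those that were called lower lost the call with the trend removed. Of 48 tested, 1 was higher and 11 lower (median -0.24, median GC 55.6%), beside 5.46% and 6.81% of all genes. With the trend removed 1 and 1 were called (median -0.10), beside 3.89% and 1.51%. JAG2, a ligand, was at 75.3, 81.9 and 79.2 CPM in control and at 40.2, 38.9 and 39.6 CPM in A333fs libraries (log2 fold change -0.99, SE 0.07, corrected -0.55, not called). NRARP, a feedback inhibitor, was at 93.6, 93.1 and 87.9 CPM and at 53.03, 50.9 and 50.2 CPM (-0.83, SE 0.07, corrected -0.51, not called). DTX1, a ubiquitin ligase, stayed lower at low counts (-1.43, SE 0.29, corrected -1.01), and DLL1, another ligand, rose from 9.53, 9.17 and 7.67 CPM to 17.1, 16.6 and 14.5 CPM (0.87, SE 0.10, corrected 1.20). The libraries of the 2 lines did not overlap in these genes, as in 806 of 808 higher and all 1007 lower genes called. Of 36 WNT genes, 2 were higher and 7 lower, and 1 and 1 with the trend removed. DKK1, a WNT antagonist, rose from 6.14, 6.38 and 5.38 CPM to 13.7, 14.4 and 13.1 CPM (1.20, SE 0.11, corrected 0.91).

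Neuronal genes held decreases that were called both without and with the correction. Of 41 postsynaptic and neuronal scaffold genes, 4 were higher and 8 lower (median GC 56.1%), beside 5.46% and 6.81% of all genes. With the trend removed 5 and 4 were called, beside 3.89% and 1.51%. GRIK4, a kainate receptor subunit, fell from 34.6, 36.8 and 35.0 CPM to 14.1, 13.4 and 14.4 CPM (log2 fold change -1.34, SE 0.07, corrected -1.19), and GRIK3, another subunit, from 57.1, 50.3 and 55.1 CPM to 20.8, 23.3 and 23.2 CPM (-1.27, SE 0.07, corrected -1.04). CSMD2, a synaptic membrane protein, fell by 2.30 (log2 fold change -2.003 with the trend removed). GRIK1, of the same receptor family, rose (1.69, SE 0.26, corrected 1.54), and ANK2, ankyrin-B, rose from 3.22, 3.40 and 3.44 CPM to 8.26, 9.09 and 10.7 CPM (1.48, SE 0.14). Of 32 sodium and potassium channels, 5 were higher and 6 lower, and 6 and 2 with the trend removed.

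Genes of growth and housekeeping were seldom called higher, and for several lists the share called lower was near the 6.81% of all genes. In the decile of genes with the highest mean CPM, 1.35% were called higher and 11.7% lower. The median of that decile was -0.23, and -0.14 with the trend removed. Of 87 nucleolar genes of ribosome synthesis, 0 were higher and 13 lower, and 0 and 1 with the trend removed (median -0.24 and -0.18). Cytosolic ribosomal proteins gave 0 higher and 4 lower of 78 (0 and 3; median -0.18 and -0.17), mitochondrial ones 0 and 6 of 77 (0 and 1), and nuclear genes of oxidative phosphorylation 0 and 5 of 82 (0 and 2). Of 58 DNA replication genes 0 were higher and 7 lower (median -0.16 and -0.25). Of 50 mitosis genes 0 were higher and 5 lower (median -0.05 and -0.25, median GC 43.3%). With the trend removed, 0 replication and 1 mitosis genes were lower. Of 90 chromatin regulators 1 was higher and 8 lower, and none was called with the trend removed. Other lists of this kind had medians near 0, at -0.03 for proteasome subunits, 0.09 for cytosolic and 0.03 for endoplasmic reticulum chaperones.

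Zinc finger genes showed the opposite pattern without the correction. Of 479 genes with ZNF symbols, at a median GC content of 43.4%, 41 were higher (8.56%) and 10 lower (2.09%), with a median of 0.25. With the trend removed 9 and 7 were called (median 0.04), beside 3.89% and 1.51% of all genes. ZNF35 was at 14.8, 14.4 and 14.8 CPM in control and at 23.4, 22.8 and 24.1 CPM in A333fs libraries (log2 fold change 0.68, corrected 0.43, not called). Among long intergenic noncoding genes, 11 of 176 were higher (6.25%) and 4 lower (2.27%), beside 5.46% and 6.81% of all genes. With the trend removed 9 and 3 were called. Among the higher ones, LINC01016 rose from 12.8, 12.8 and 12.6 CPM to 52.9, 57.3 and 51.8 CPM (2.08, SE 0.06, corrected 1.96).

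**Figure D5:**
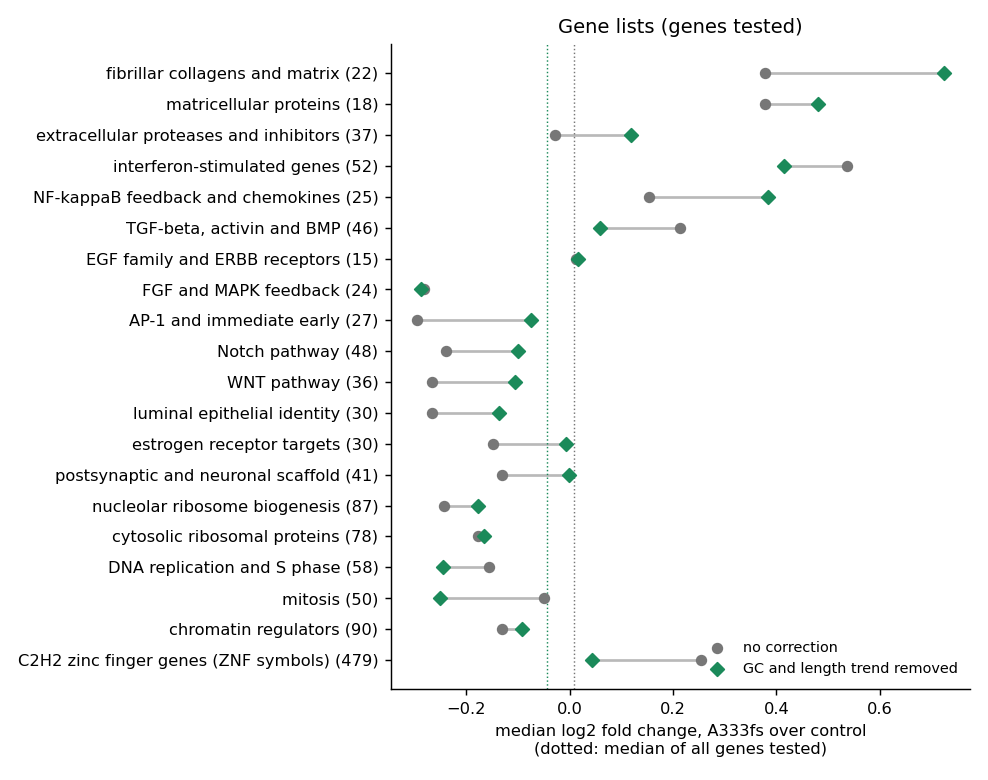
Median log2 fold change of A333fs over control for 20 gene lists without a correction (grey circles) and after the trend was removed (green diamonds), with the number of genes tested in brackets and dotted lines at the medians of all genes. Matrix and interferon lists stay to the right both ways (0.38 and 0.72 for the fibrillar collagens and matrix, 0.54 and 0.41 for interferon), and the Notch list moves from -0.24 to -0.10.

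Some of the higher genes were neighbours. With the trend removed, 137 of 576 higher genes (23.8%) had a higher gene as the next tested gene on either side, and 7.52% of all genes tested had such a neighbour. For the lower genes the shares were 24 of 224 (10.7%) and 3.01%. Neighbours can overlap or share reads and a GC content, and whether they are regulated together was not tested. Fewer genes were lower (224) than higher (576), so runs of lower genes were less likely from the start. There were 16 runs of at least 3 neighbouring higher genes and 0 of lower genes, and these counts do not compare the directions. The longest, on chromosome 21 (hg38 chr21:42199689-42496354), held 5: ABCG1, TFF3, TFF1, TMPRSS3 and RSPH1. TMPRSS3, a membrane serine protease, rose most, from 3.22, 3.94 and 4.62 CPM to 19.8, 19.8 and 24.3 CPM (log2 fold change 2.44, SE 0.13). TFF1 and TFF3, secreted trefoil peptides, rose from 2.34, 3.14 and 2.60 CPM to 5.97, 5.04 and 5.43 CPM (1.02, SE 0.15) and from 60.3, 65.3 and 63.3 CPM to 102, 92.0 and 94.7 CPM (0.61, SE 0.10). Another run of 4 on chromosome 7 (hg38 chr7:88276429-90311063) held the membrane proteins STEAP4, STEAP1 and STEAP2 with CFAP69, at log2 fold changes of 1.26, 1.83, 0.92 and 1.47. Neighbours were the next tested genes at any distance, and here STEAP4 ended at 88306913 while STEAP1 began at 90154375.

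The promoters of the called genes were searched for AGATAA and TGATAA on both strands, the core letters that GATA factors bind. RefSeq promoters (250 bases before to 50 after the start, GRCh38.p14) were matched for 11154 of the 14789 genes, on the same chromosome and strand and within 10000 bases of the counted gene. Of these, 7.83% held a match, against 72 of 601 promoters of higher genes (12.0%) and 28 of 739 of lower genes (3.79%). The promoters differed in base content as well, with a median GC of 61.7% for higher, 70.0% for lower and 65.3% for all genes. Among promoters up to the median GC content the shares were 19.3% for higher, 8.58% for lower and 13.6% for all genes. Above that median the higher genes had the smallest share, at 0.427% for higher genes (1 of 234), 1.58% for lower and 2.03% for all genes. Base content still differed among promoters up to that median, at 55.7% GC for higher, 60.7% for lower and 58.3% for all genes (medians). Above it the medians were 72.0%, 74.0% and 71.7%. A match is a description of the letters and no measure of binding. Neither motif contains the other. The 8 largest increases above were taken among genes with over 3 counts in some control library and at least 1 CPM in A333fs cells, so genes at the floor such as DCN and TIMP3 are not among them. Of the 8, 6 had a promoter in the table and 2 of these a match, and both are shown as promoters of genes that rose and hold these letters. The GNAT3 promoter lies at chr7:80512015-80512314 on the minus strand and that of SLC6A14 at chrX:116436356-116436655 on the plus strand, with the match in capitals (in SLC6A14 the motif is on the other strand).
GNAT3: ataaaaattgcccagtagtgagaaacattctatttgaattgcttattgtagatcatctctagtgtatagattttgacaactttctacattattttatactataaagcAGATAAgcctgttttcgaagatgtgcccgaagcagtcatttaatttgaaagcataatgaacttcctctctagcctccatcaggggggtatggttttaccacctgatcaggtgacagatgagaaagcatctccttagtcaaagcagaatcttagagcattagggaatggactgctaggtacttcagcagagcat
SLC6A14: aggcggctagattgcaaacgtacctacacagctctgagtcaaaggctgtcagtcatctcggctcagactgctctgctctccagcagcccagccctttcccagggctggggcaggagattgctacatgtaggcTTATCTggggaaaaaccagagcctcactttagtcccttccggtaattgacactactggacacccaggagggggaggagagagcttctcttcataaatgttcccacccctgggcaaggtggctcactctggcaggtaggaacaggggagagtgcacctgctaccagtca

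A second comparison set A333fs against the mean of the Splice del and C321fs lines. That mean was taken over log2 levels, so a line with a very low level pulls it down. The comparison uses no control library and tests whether a gene in A333fs cells differs from that mean, not from each line. In it 228 genes (1.54%) were higher and 342 (2.31%) lower, 3.85% in either direction. With the trend removed there were 242 (1.64%) and 290 (1.96%). Of the genes higher than control, 164 were also called higher than the mean of the other mutants, and of the lower ones 157 were also called lower. The A333fs mean was above the means of both lines for 153 of the 164 and below both for 156 of the 157. Among the exceptions, TMPRSS3 was at a mean of 21.3 CPM in A333fs, 24.0 CPM in Splice del and 4.04 CPM in C321fs cells. The comparisons share the A333fs libraries. DCN was at a mean of 5.98 CPM in Splice del and 0.0209 CPM in C321fs cells, against 12.3 CPM in A333fs cells (log2 fold change over the other mutants 4.97). TIMP3 was at 0.946 and 0.230 CPM (3.23), and SVEP1, a large adhesion protein of the matrix, was at 0.140 and 0.0969 CPM in the other mutants and at 1.07, 1.21 and 1.14 CPM in A333fs libraries (3.25). CDH10, a neural cadherin, was at 0.240 and 0.283 CPM and at 1.39, 2.04 and 2.20 CPM (2.82).

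In the lower direction, ETV4, a target factor of FGF signalling, was at 1.85 CPM in Splice del and 4.50 CPM in C321fs cells and at 0.775, 1.08 and 0.793 CPM in A333fs libraries (log2 fold change over the other mutants -1.71). ABCC12, a transporter, was at 8.30 and 8.82 CPM and at 2.03, 2.87 and 2.49 CPM (-1.79), and its control libraries were at 3.94, 3.82 and 3.47 CPM. DUSP4 was at 89.3 and 128 CPM against 54.1 CPM (-0.98), while MSX2 and COL12A1 did not pass this test (-0.11 and -0.17). In L1CAM, a neural adhesion molecule, the lines went apart: 12.5 and 16.4 CPM in the other mutants, 27.6, 34.8 and 31.6 CPM in control and 62.5, 66.3 and 71.2 CPM in A333fs libraries (2.22). L1CAM was the only one of 7 markers of the embryonic kidney line that was called, and SALL1, NEFL and INA had 0 counts in all 6 libraries.

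Interferon genes were among those with opposite calls. Of the 52 tested, 2 were higher and 10 lower in A333fs cells than the mean of the other mutants. IFI6, ISG15 and SAMD9L were higher than control and lower than that mean; IFI6 had means of 12.2 CPM in control, 23.8 CPM in A333fs, 37.7 CPM in Splice del and 52.9 CPM in C321fs cells. GBP1 and GBP2 were higher than control and than that mean (log2 fold change over the other mutants 2.40 and 1.48). Over all genes, 5 were higher than control and lower than that mean, the 3 above with TMEM45A and FIBCD1, and 1, SOX6, was lower than control and higher than it (3.22 CPM in control, 1.18 in A333fs, 0.797 in Splice del and 0.470 in C321fs cells). With the trend removed, IFI6, SAMD9L and SOX6 kept both calls. ISG15 and FIBCD1 were no longer called lower than the mean of the other mutants (corrected -0.55 and -0.39), and TMEM45A was no longer called higher than control (corrected 0.47). FIBCD1, at 19.2 CPM in A333fs cells, was below Splice del (53.6 CPM) and above C321fs cells (16.2 CPM).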

How the data were processed

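RNA was measured by paired-end sequencing from T47D lines, 3 libraries per line. The authors trimmed the reads, aligned them to hg38, kept properly paired fragments and deposited counts per gene from featureCounts 1.6.4 without strand. The aligner is not settled by the sources used here, and the labels and the study's methods differ on the growth medium.

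All 12 RNA-seq libraries were fitted together with edgeR 4.0.16 (R 4.3.3), TMM factors, filterByExpr by line and the quasi-likelihood F-test. The limits for a call were 0.01 for p after Benjamini-Hochberg adjustment and 1.5 for the fold change. SE is the log2 fold change divided by the square root of F, log2 CPM used a prior count of 2, and bounds used a floor of 3 counts per library. GC content and length came from the union of exons in the count file and hg38. The trend was a loess fit (span 0.3) over GC content and then length. The pipeline was tested on simulated data. Alternatives were other scalings, filters, DESeq2 1.42.0, thresholds, a replicate block, GC or length removal and leaving out each library. The 15 ChIP-seq samples were not used.

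The named genes were fixed markers, the largest and most abundant changes, genes at the floor, lower genes kept with the trend removed, genes that also differed from the other mutants, and up to 3 called genes per direction and list. The members and lists were chosen with earlier results of these data known. COL5A1, CTGF, INHBA, DTX1, IFI6, ISG15, SAMD9L, CCL2, GBP2, SNAI1, the neighbouring genes and the genes with opposite calls were named after their values were seen.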

Additional observations from a re-analysis of the deposited data

Results flagged for a closer look

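Values are log2 fold changes of A333fs over the mean of the Splice del and C321fs lines, taken over log2 levels. They were tested directly by edgeR's quasi-likelihood test in the fit of all 12 libraries. In this test of the difference between mutant lines, 228 genes were higher and 342 lower. Matrix and surface genes with higher values were DCN at 4.97, SVEP1 at 3.25, TIMP3 at 3.23, CDH10 at 2.82, ITGAM at 2.64, LUM at 2.48 and SPARC at 1.75. Further genes with higher values were LOC100132735 at 4.25, ZMAT4 at 2.29, ST8SIA1 at 2.03, CYP4F22 at 1.46, GPRC5B at 1.30, GNAT3 at 1.27, CXCL14 at 1.02, GALNT5 at 0.97, SLC6A14 at 0.94 and TWIST1 at 0.79. GPRC5B, GNAT3, GALNT5 and SLC6A14 were below 1 of the 2 lines, and CYP4F22 was close to Splice del. Mean CPM in A333fs, Splice del and C321fs cells was 8.56, 8.51 and 1.14 for CYP4F22, 3.86, 4.16 and 0.579 for GPRC5B, 2.62, 0.376 and 3.01 for GNAT3, 5.62, 8.38 and 0.981 for GALNT5, and 89.2, 107 and 20.1 for SLC6A14. The A333fs mean was above both lines for 217 of the 228 genes and below both for 340 of the 342. Of the transporters and enzymes lower in A333fs cells, ABCC12 was at -1.79, SPINK13, a protease inhibitor, at -1.68 and ACOX2 at -0.74. Signalling and regulatory genes were ETV4 at -1.71, ASCL2 at -1.33, DUSP4 at -0.98 and HMGA1 at -0.83. The remaining lower genes were MIR7113 at -2.21, CSMD2 at -1.82, LOC440461 at -1.66, RTBDN at -1.65 and NKAIN1 at -0.86.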

How the results depend on the processing

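Upper-quartile scaling gave 1329 higher and 475 lower genes and library size alone 1544 and 380. Removing the GC trend gave 215 lower genes, removing GC and length 224, and removing both with the replicate block 225, with 568, 576 and 574 higher genes. With no minimum fold change 3112 genes were higher and 3902 lower, and testing against a fold change of 1.5 gave 234 and 119. ESR1 went to -0.0343 with GC removed, -0.0048 with GC and length removed and -0.005 with the block as well, and PGR to 0.038 under upper-quartile scaling and 0.0724 under library size alone, neither called. Leaving out 1 library gave 703 to 850 higher and 700 to 1255 lower genes against control, and 204 to 241 higher and 244 to 390 lower genes against the other mutants. DESeq2 gave 807 and 946. The replicate numbers did not pair the samples (correlation of same-numbered deviations -0.0173, -0.0767 and -0.0501), and the replicate block gave 802 higher and 1006 lower genes. The depth limits genes at a few counts, whose rise is given as a bound. Each SE covers the spread between libraries of the same pool and not that between pools. The bounds carry no measure of error.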
